A study of Rattus norvegicus with 21 samples.

Results

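The CpGs described here are those whose methylation varied most between the libraries of a rat striatum study. A cytosine was taken when it lay on chromosomes 1 to 20, had at least 20 reads in all 21 libraries, and differed by 60 percentage points or more between the highest and the lowest library. Of 717528 cytosines measured at that depth, 6241 met the rule, a share of 0.870%, so the members were chosen by their measured methylation values. Joining members within 250 bp of each other gave 4963 clusters. Their ranges are therefore given as a description, with no test.

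The tissue was dorsal striatum, a brain region supplied with dopamine by midbrain neurons, of wild type Sprague Dawley rats aged 120 days. Of the 21 libraries, 6 came from unlesioned, saline-treated samples, 8 from lesioned, saline-treated ones and 7 from lesioned ones given L-DOPA, the precursor of dopamine. The lesion was made with 6-OHDA, a toxin of dopamine neurons, in the medial forebrain bundle of the left side, and 3 weeks of recovery followed. L-DOPA was given at 6 mg/kg daily for 7 days, and the striatum was collected 3 h after the final dose. The labels number the samples of a group but name no animal, and they do not say whether unlesioned samples came from other rats or from the unoperated side of lesioned ones. P-values therefore measure the spread between these samples. The tissue holds neurons and glia together, so a change in the share of a cell type and a change within cells cannot be told apart. No expression was measured, and cell type markers could not be checked.

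Methylation of cytosine in CpG pairs is copied at cell division and is high over most of a mammalian genome and low at CpG-dense promoters. Bisulfite treatment makes an unmethylated cytosine read as T, and the share of reads that keep C is taken as the methylation level. A read with T can also come from a T in the DNA itself, and no genotype of the animals was used here. A level near the middle can arise where the parental copies differ, as at imprinted genes, or where cells of a tissue differ.

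Widely varying CpGs were rare in the CpG-dense promoters that could be placed. Promoters of RefSeq genes (build GRCr8) were placed on the files' rn5 positions by the spacing of their CpGs, since no rn5 annotation was used here. A promoter was placed only where at least 10 listed CpGs fell in its window of 300 bases. This placed 6180 of 32007 promoters on their own chromosome. CpG-poor promoters are therefore missing from these shares, while members lay mostly in CpG-poor surroundings. Only 0.497% of the members lay within 500 bp of a placed start, against 14.3% of the tested cytosines, and 29.9% lay within 50 kb, against 43.9%. The windows of 16 placed promoters, each from 250 bases before the start to 50 after it, held 19 members. The stretches around the members of 9 of these genes are shown, since surrounding sequence could be given only for members in placed promoters. Capitals mark the CpG of the member. The sequences are from RefSeq, GRCr8, on the gene's strand, read 5′ to 3′, and run up to 45 bases to each side.
Slc6a16: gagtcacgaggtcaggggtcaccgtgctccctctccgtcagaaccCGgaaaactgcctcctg
Tmprss12: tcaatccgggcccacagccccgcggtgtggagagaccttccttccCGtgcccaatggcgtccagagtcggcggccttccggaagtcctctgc
Tdrd6: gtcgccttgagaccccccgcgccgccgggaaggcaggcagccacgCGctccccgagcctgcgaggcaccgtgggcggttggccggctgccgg
Zar1: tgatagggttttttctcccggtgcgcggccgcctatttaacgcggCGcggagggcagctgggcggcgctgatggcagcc
Fam43a: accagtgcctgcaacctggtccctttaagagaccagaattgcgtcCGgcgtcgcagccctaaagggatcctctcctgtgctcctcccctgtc
Pde12: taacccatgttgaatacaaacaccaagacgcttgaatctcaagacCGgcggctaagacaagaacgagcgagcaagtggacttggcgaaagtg
Secisbp2: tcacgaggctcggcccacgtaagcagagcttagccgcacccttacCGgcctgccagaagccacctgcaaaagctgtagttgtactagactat
Fgd3: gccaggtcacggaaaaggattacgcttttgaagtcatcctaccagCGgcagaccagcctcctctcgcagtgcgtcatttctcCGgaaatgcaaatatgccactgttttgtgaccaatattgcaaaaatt
Dsc3: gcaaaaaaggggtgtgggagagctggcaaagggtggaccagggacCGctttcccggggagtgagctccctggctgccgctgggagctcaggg

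In these promoters a single library often stood apart. Unlesioned 4 was the highest library at 13 of the 19 members and the lowest at 1 more, and L-DOPA 7 was the lowest at 7. Zar1 encodes an oocyte protein needed in the early embryo. Its member, 34 bases before the start (chr14:37574250), was at 65.0% in unlesioned 4 on 40 reads and at 4.65% to 31.5% in the other 20 libraries. Tdrd6 encodes a tudor domain protein of male germ cells. Its member (chr9:18795209) was at 83.3% in unlesioned 4 on 30 reads and at 10.4% to 37.9% elsewhere.

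Pde12, which encodes an RNA-degrading phosphodiesterase of mitochondria, had 72.0% in unlesioned 4 on 25 reads (chr16:2343515) and 0% to 9.78% in the others. Secisbp2, whose protein helps to insert selenocysteine, had 60.6% there on 33 reads (chr17:15661422) and 0% to 9.74% in the others. Fam43a had 63.6% there on 44 reads (chr11:76751454) and 2.74% to 14.3% in the others. At all 3 of these promoters 20 libraries were low and 1 was high.

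Slc6a16, an orphan member of the family of neurotransmitter transporters, was at 89.3% in unlesioned 4 and 10.8% in L-DOPA 7 (chr1:102302404), with a median of 49.2% over the 21 libraries. At Tmprss12, a gene for a membrane serine protease, unlesioned 4 was again highest, at 84.3%, and L-DOPA 2 was lowest, at 19.7% (chr7:139764046). Fgd3, an exchange factor for the small GTPase Cdc42, had 2 members 37 bases apart. They were at 12.3% and 17.8% in L-DOPA 7, at 78.8% and 84.6% in lesioned saline 6, and had medians of 62.2% and 62.9%. Dsc3, a desmosomal cadherin, ranged from 24.6% in L-DOPA 7 to 100% in lesioned saline 3, the latter on 21 reads (chr18:11588960).

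The members as a whole were CpGs of middle methylation in CpG-poor surroundings. Their methylation pooled over libraries had a median of 56.5%, against 2.73% for all measured cytosines, and 92.4% of them lay between 20% and 80%, against 14.1%. Within 125 bp to either side the files listed a median of 4 CpGs around a member and of 7 around a tested cytosine. Members were read less deeply, with a median of 60 reads against 98. Forward and reverse strands held 3136 and 3105 members. The median range was 65.7 points, and 1855 members reached 70 points, 566 reached 80, 212 reached 90 and 52 went from 0% to 100%. At the threshold, 739 members had a range of 60 to 61 points, and 730 cytosines just outside the rule had 59 to under 60.

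Most clusters were small. A single member made up 4057 clusters, 664 had 2 members, 162 had 3 and 80 had 4 or more. The median span of clusters with several members was 33 bp and the longest was 501 bp. The share of tested cytosines that met the rule fell as depth rose. It was 3.50% where the shallowest library had 20 to 29 reads, 1.17% from 30 to 49 reads, 0.285% from 50 to 99 and 0.146% from 100 on. Intervals here cover counting error only, since reads without molecular identifiers are not independent molecules.

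A few libraries made most of the ranges. Without some single library, which could be any of the 21, 5286 of the 6241 members would fall under 60 points. With a median range of 65.7 points, many members lose the range once an extreme library is left out. Between the second highest and the second lowest library, 613 members (9.82%) kept 60 points. L-DOPA 7 was lowest at 2854 members, and 34.5% of the members rested on it. Unlesioned 4 was highest at 1710 and lowest at 760, and 29.4% rested on it. L-DOPA 3 came next, with 11.8%. Together L-DOPA 7, L-DOPA 3, unlesioned 1 and lesioned saline 2 supplied the lowest value at 4886 members (78.3%).

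Averaged over the members, methylation was 29.5% in L-DOPA 7, 36.7% in L-DOPA 3, 40.2% in unlesioned 1 and 44.5% in lesioned saline 2, and 52.7% to 63.7% in the other 17 libraries. Over all tested cytosines the same 4 libraries averaged 33.8% to 35.4%, and the others 36.7% to 38.4%. Their reads moved with this: median depth at members was 0.380 to 0.488 times that at measured cytosines in these 4 libraries, and 0.579 to 0.745 times in the others. The part of read depth in these values was not tested. Unlesioned 4 had a member mean like that of the others, 58.8%, and its values departed both ways. It had the second lowest median depth over measured cytosines, 64 reads, and at non-members of 30% to 70% pooled methylation it was at exactly 0% or 100% at 0.562%, against at most 0.193% in the other libraries.

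**Figure D1:**
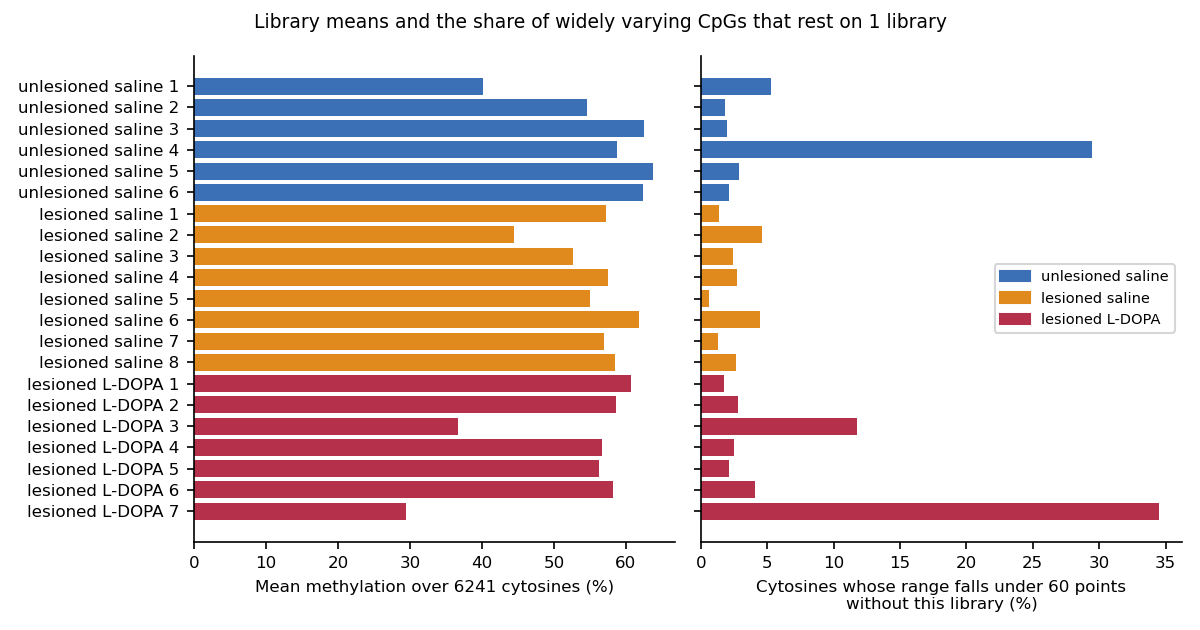
Mean methylation over the 6241 cytosines (left, percent) and the share of these cytosines whose range falls under 60 points without the library (right, percent), 1 bar for each of the 21 libraries, coloured by group. L-DOPA 7 has the lowest mean, 29.5%, and L-DOPA 7 and unlesioned 4 carry the largest shares, 34.5% and 29.4%.

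Clusters were sorted by whether their 21 values fell into separate levels. The sorted values of a cluster were divided at every gap of at least 15 points, and a cluster was called stepped when this gave 2 or 3 levels that each spanned at most 30 points. Of the 4963 clusters, 4222 (85.1%) were graded and 741 (14.9%) were stepped. The split rests on the limit of 30 points, since without it 3418 would be stepped and 1545 graded. In 499 of the stepped clusters 1 library stood alone on a level. Unlesioned 4 was alone in 214 of these and L-DOPA 7 in 211. That left 127 clusters with 2 levels and 115 with 3 levels in which each level held at least 2 libraries.

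**Figure D2:**
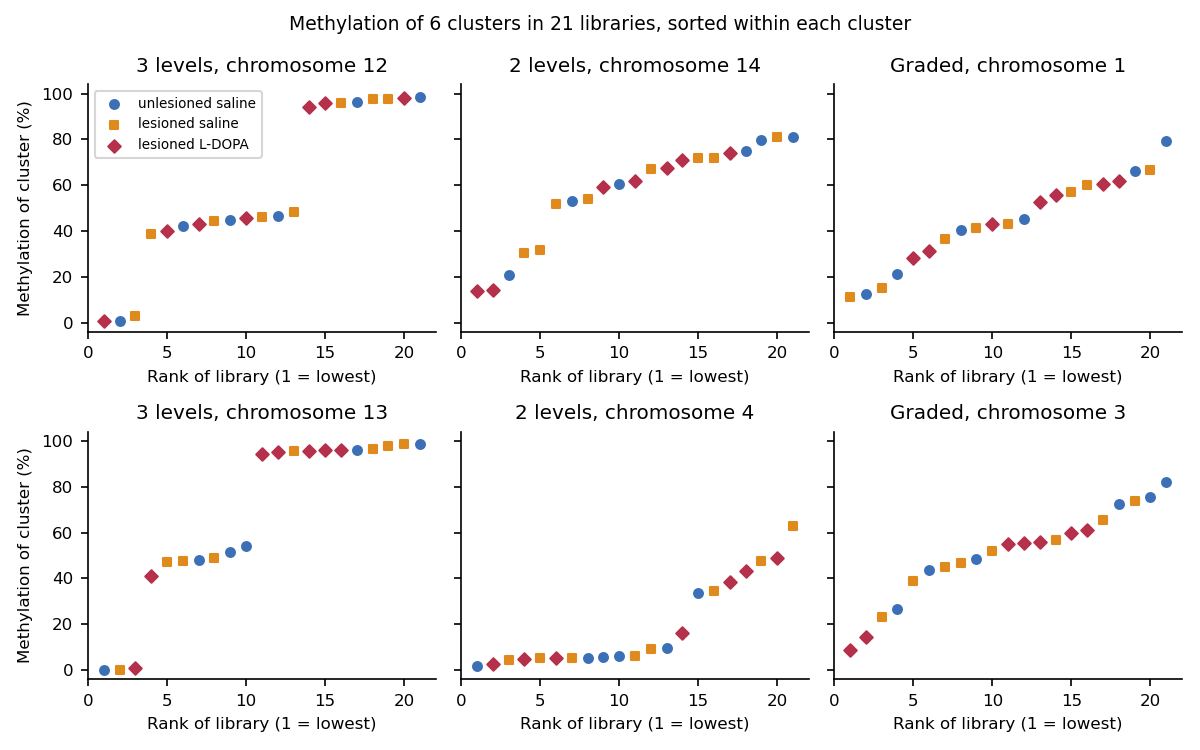
Methylation (percent) of 6 clusters in the 21 libraries, sorted from lowest to highest within each cluster, with points coloured and shaped by group. The 3-level clusters on chromosomes 12 and 13 have points on 3 separate steps, with all 3 groups mixed along the steps, and the graded ones rise without a wide gap.

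The 3-level clusters had the same levels again and again. The median of their lowest level was 0%, of the middle level 46.5% and of the highest 90.4%, and these levels held a median of 5, 9 and 6 libraries. In 97 of the 115 the lowest level was under 10%, the middle one between 30% and 60% and the highest over 70%. Of their 131 member cytosines, 125 kept the range between second highest and second lowest library, against 435 of 5351 in graded clusters (8.13%). Their depth was higher, with a median of 96 reads, against 58 in graded clusters. Among members with 100 reads or more in every library 27.4% lay in 3-level clusters, and among those with 20 to 29 reads 0.977%. Whether the DNA sequence differs between the animals at these cytosines was not tested.

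A 3-level pattern was usually the matter of 1 CpG. A single cytosine made up 101 of the 115 clusters. This was common in the other kinds too, with 99 of the 127 clusters with 2 levels and 3427 of the 4222 graded ones. Of the 499 with 1 library alone on a level, 430 were single cytosines. For 13 member cytosines the one on the other strand of the same CpG was also measured, and 12 of these were members. The median correlation was 0.959 over the 21 libraries. Counts and median are per member cytosine, so a CpG with both strands members enters from each side. Other measured cytosines within 250 bp had a median range of 20.5 points and a median correlation of 0.179 with the cluster. These are non-members only, with ranges under 60 points by the rule, since members within 250 bp were joined into the cluster. In graded clusters, counted the same way, 58 of 471 other-strand cytosines were members, with a median correlation of 0.478. Neighbours there, also non-members, had a median range of 37.9 points. These correlations are over the same 21 libraries and partly the same reads.

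Among these clusters, 1 lies at chr12:8298720-8298834, between the placed promoters of LOC102546827 (373556 bp away) and Hsph1 (143647 bp), a heat shock protein. In unlesioned libraries 1 to 6 it was at 96.2%, 42.3%, 45%, 46.7%, 98.5% and 0.633%. The lesioned saline libraries 1 to 8 had 44.3%, 97.9%, 38.5%, 96%, 48.2%, 46.2%, 97.7% and 2.73%. L-DOPA libraries 1 to 7 had 95.8%, 45.7%, 0.543%, 94.1%, 97.9%, 40.1% and 43.1%. Each group had libraries on all 3 levels. The lowest value, in L-DOPA 3, rests on 184 reads (95% Wilson interval 0.0960% to 3.01%).

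At chr13:57914754-57914755, 221129 bp from Lad1 and 228240 bp from LOC120096257, both strands of 1 CpG were members. Unlesioned libraries 1 to 6 were at 0%, 48.0%, 98.8%, 54.3%, 96.2% and 51.3%. Lesioned saline libraries 1 to 8 were at 96.4%, 0%, 49.0%, 97.7%, 98.7%, 47.8%, 95.5% and 47.0%. Of the L-DOPA libraries, 5 lay between 94.4% and 96.1%, L-DOPA 7 was at 41.0% and L-DOPA 6 at 1.01%. The 0% of unlesioned 1 rests on 276 reads, with a Wilson upper bound of 1.37%. Another example, chr5:176700331-176700356, lies 32080 bp from Ccnl2, a cyclin that acts in splicing. Its levels were near the same 3 values, with 6 libraries at 0.787% or less, 11 from 41.2% to 53.5% and 4 from 72.5% to 84.4%.

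The last 2 of the 5 named 3-level clusters were less regular. At chr7:100116019-100116067 the low levels were made by libraries that were low at most members: unlesioned 1 at 27.6%, L-DOPA 7 at 21.4%, lesioned saline 2 at 42.9% and L-DOPA 3 at 55.3%, with the other 17 between 79% and 97%. At chr10:4586876-4586980 libraries lay from 18.7% to 84.8%. This cluster joins a forward-strand cytosine with a median of 1.93% (median 220 reads) to 2 reverse-strand ones. Those had medians of 77.05% and 78.38% (median 52 reads each). The cluster value is thus a blend weighted by reads, and need not be the level of any of its cytosines. All 7 L-DOPA libraries there were at 19.7% to 37.1%, and the other groups had medians of 44.6% (unlesioned) and 43.0% (lesioned saline) with ranges that overlapped them.

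Neighbouring 3-level clusters shared their pattern over long stretches. For pairs of such clusters under 100 kb apart (5 pairs) the median absolute correlation over the 21 libraries was 0.979. From 100 kb to 1 Mb (29 pairs) it was 0.893, from 1 to 10 Mb 0.280, beyond 10 Mb 0.236, and between chromosomes 0.198. Graded clusters showed no such change with distance: the median was 0.397 under 100 kb and 0.390 between chromosomes. Joining 3-level clusters within 1 Mb whose absolute correlation was at least 0.8 gave 17 stretches with 38 of the 115 clusters, with a median length of 209098 bp.

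**Figure D3:**
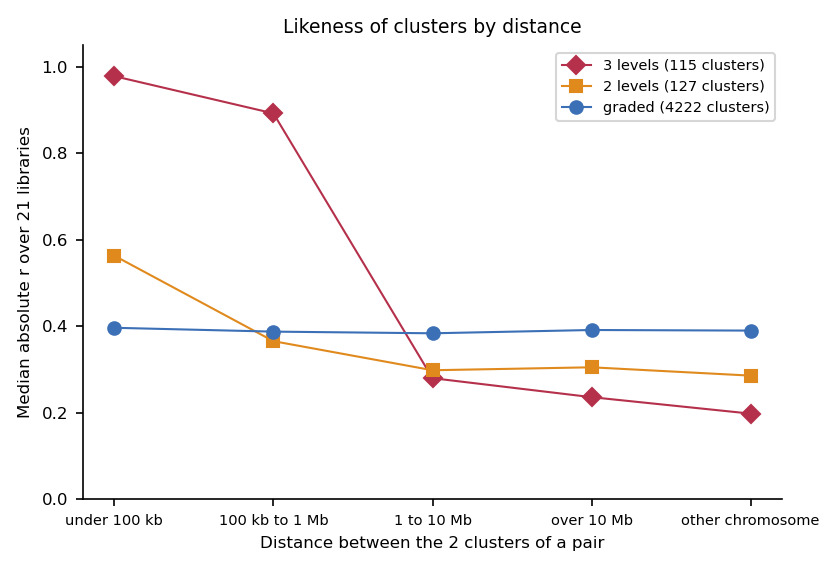
Median absolute correlation over the 21 libraries for pairs of clusters (vertical) by the distance between them (horizontal), for 3-level, 2-level and graded clusters. The 3-level line falls from 0.979 to 0.198 with distance and the graded line stays near 0.39, while the 2-level value under 100 kb rests on 2 pairs.

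The longest stretch, chr12:49817319-51188685, held 5 clusters with 7 member cytosines next to Kctd10, an adaptor of a ubiquitin ligase. Lesioned saline 1 was at 75.3% to 91.3% in all 5, lesioned saline 4 at 74% to 96% and L-DOPA 2 at 68.9% to 98.2%. Lesioned saline 3 was at 0% to 2.88% and L-DOPA 7 at 0%. L-DOPA 3 was at 0% in the first 3 clusters and at 45.3% and 23.6% in the last 2, so the pattern of a library could change along the stretch. Pairs of clusters could also run opposite ways. Near Dusp5, a phosphatase of MAP kinases, and Adra2a, the alpha-2A adrenergic receptor, 2 clusters 62710 bp apart had unlesioned 4 at 0% in the first and 77.1% in the second, and unlesioned 2 at 98.8% and 0%. Of the 17 stretches, 6 held a pair that ran opposite ways.

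Over the 3-level clusters 6 pairs of libraries were nearly alike. Each joined 1 unlesioned library with 1 lesioned saline library, and no library was in 2 pairs. Unlesioned 3 and lesioned saline 5 lay on the same level in all 115 clusters, as did unlesioned 5 and lesioned saline 7. Unlesioned 1 and lesioned saline 2 shared the level in 113, unlesioned 6 and lesioned saline 8 in 113, unlesioned 2 and lesioned saline 3 in 111, and unlesioned 4 and lesioned saline 6 in 107. The other 204 pairs shared it in 28 to 69 clusters. In 102 of the 115 clusters all 6 pairs were on a shared level. The mean absolute difference was 4.07 to 7.97 points within the 6 pairs and 22.4 to 43.4 points in the other 204.

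**Figure D4:**
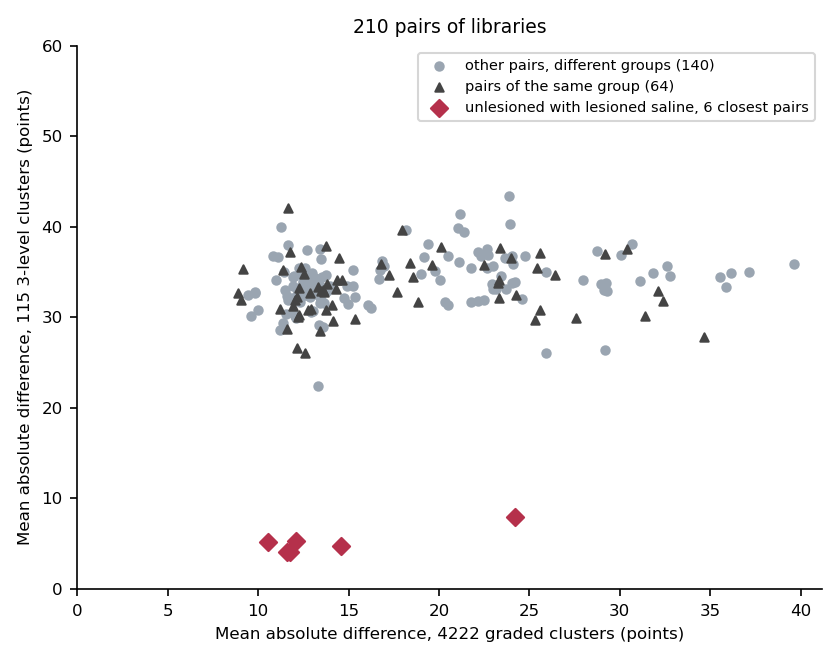
Mean absolute difference in methylation between 2 libraries over the 115 3-level clusters (vertical, percentage points) and over the 4222 graded clusters (horizontal, percentage points), 1 point for each of the 210 pairs of libraries. The 6 closest pairs lie at 4.07 to 7.97 points on the vertical axis, below all other pairs, and among them on the horizontal axis.

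The same 6 pairs were the closest over the 60 clusters on odd chromosomes and over the 55 on even ones. At 24 cytosines outside the rule with 3 levels and a range of 40 to under 60 points, they differed by 6.33 to 10.1 points and the other pairs by 5.35 to 33.5, with a median of 14.4, so the 6 pairs were not set apart there. Over the 127 clusters with 2 levels they differed by 5.93 to 14.5 points and the others by 9.64 to 35.5. Over graded clusters they differed by 10.6 to 24.2 points, and the other pairs by 8.90 to 39.6. Over tested non-members they differed by 4.44 to 7.23 points and the others by 3.91 to 8.55, so no pair was a repeat of the same values. The number in the labels was not shared by the members of any pair. The deposited library numbers form 2 separate runs, and 4 of the 6 pairs cross them. Lesioned saline 1 to 6 and L-DOPA 1 to 3 are in the first run. All unlesioned libraries, lesioned saline 7 and 8 and L-DOPA 4 to 7 are in the second. Lesioned saline 1 and 4 and the 7 L-DOPA libraries had no such partner. The labels do not say what the paired libraries share.

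Clusters with 2 levels were of mixed kinds. In 58 of the 127 the smaller level held only libraries among L-DOPA 7, L-DOPA 3, unlesioned 1 and lesioned saline 2, and in 15 it was exactly L-DOPA 7, L-DOPA 3 and unlesioned 1. At chr14:8231308-8231334 the same 4 libraries were at 13.7%, 14.5%, 21% and 31.8%, joined by lesioned saline 3 at 30.4%, and the rest lay from 51.9% to 81.1%. In the remaining 69 clusters the levels had medians of 37.9% and 83.2%. There each of the 6 closest pairs lay on the same level in 56 to 68 clusters, and the other pairs in 28 to 57, with a median of 46.

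At chr4:177335766-177335798, 840547 bp from Pole4, which encodes a DNA polymerase subunit, 3 member cytosines were low in most libraries. Lesioned saline 4 was at 62.8%, L-DOPA 1 at 48.9%, lesioned saline 1 at 47.5%, L-DOPA 3 at 43.1%, L-DOPA 4 at 38.3%, lesioned saline 2 at 34.6% and unlesioned 1 at 33.7%, and the rest were at 16.1% or less. High libraries came from all 3 groups. The other named 2-level clusters, at chr11:69853907-69853980 67261 bp from Polq, chr6:63792735-63792753 319423 bp from Snx13 and chr2:63951101-63951137, 48963 bp from Mcidas, had unlesioned 1 and L-DOPA 3 at 19.4% to 36.6% and a median of 55.9% to 73.4% over all libraries.

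Graded clusters were positively correlated across the genome, over the same values by which their members were chosen. L-DOPA 7, L-DOPA 3, unlesioned 1 and lesioned saline 2 supplied the lowest value at 78.3% of all members. Part of this correlation is therefore set by the rule, and it was not computed for pairs of non-members. The median correlation between 2 of them over the 21 libraries was 0.373 for clusters on different chromosomes, and it was positive at every distance. Against the median library of each cluster, L-DOPA 7 had a median difference of -29.2 points, L-DOPA 3 of -20.4, unlesioned 1 of -16.7 and lesioned saline 2 of -12.3. The other 17 libraries lay between -3.57 and 7.52 points. The 8 clusters with the most members were all graded.

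Distances to genes here are to the nearest placed promoter, and genes that could not be placed may lie closer. The largest cluster, chr3:174688092-174688175, had 11 member cytosines on 84 bp. It was at 34% in unlesioned 1 and 72.8% to 81.3% in the other unlesioned libraries, at 46.7% in lesioned saline 2 and 62.9% to 76.9% in the other lesioned saline ones, and at 16.5% in L-DOPA 7, 30.7% in L-DOPA 3 and 64.8% to 77% in the other L-DOPA ones. The group means were 70.7% ± 18.2 (SD, n = 6), 68.8% ± 10.4 (n = 8) and 58.9% ± 24.8 (n = 7). Within each group, 1 or 2 libraries were far below the rest, and the groups overlapped.

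A cluster of 7 members at chr1:13502877-13503377, 1012252 bp from Cited2, a transcriptional coregulator, was graded in another way. It had a median of 3426 reads summed over its members. Its values ran from 11% in lesioned saline 2 to 79.5% in unlesioned 6, and the 5 lowest libraries were lesioned saline 2, unlesioned 1 (12.6%), lesioned saline 7 (15%), unlesioned 5 (21.3%) and L-DOPA 7 (28.3%). Unlesioned 5 and lesioned saline 7, which form 1 of the 6 closest pairs, were both low here while their means over the members were 63.7% and 56.9%. The group means were 44.2% ± 25.6, 41.4% ± 20.3 and 47.7% ± 13.7.

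The other 6 of the largest clusters held 6 or 7 members each. They lie at chr8:68746394-68746482 between Smad3, a mediator of TGF-beta signals, and Map2k1, a MAP kinase kinase, at chr1:151969337-151969386, at chr7:140521803-140522036 between Scn8a, a sodium channel of neurons, and Acvr1b, at chr20:16463494-16463747 between Gucd1 and Bcr, at chr18:24496642-24496691 179349 bp from LOC120098222, and at chr5:66144954-66144995, 6211 bp from Tmod1, which caps actin filaments. Their lowest library was L-DOPA 7 at 12% and 6.36% (chromosomes 8 and 18), L-DOPA 3 at 11.8%, 24.4% and 10.5% (chromosomes 1, 7 and 20) and unlesioned 1 at 13.5% (chromosome 5). Their medians were 42.2% to 59.8%. Unlesioned 4 reached the highest value on chromosome 8, 72%, on a coverage of 193 summed over 7 members (95% Wilson interval 65.3% to 77.9%). A read that covers several members counts at each, so fewer reads underlie this value and the interval is too narrow.

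Of the 5 further graded clusters named by size, chr2:180911355-180911390 and chr2:180916126-180916174 lie close together, 2567146 bp and 2562362 bp from Rsrc1. Their medians were 47.4% and 39.3%, and lesioned saline 2 was at 21.4% in the first and 4.11% in the second. At chr3:18530506-18530548, 255827 bp from Mvb12b, L-DOPA 7 was at 8.72% and unlesioned 6 at 81.9%. At chr3:172805124-172805252, 252959 bp from LOC120101802, values ran from 15.4% to 74.8%, and at chr5:162150005-162150109, 562074 bp from Ubr4, from 18.5% to 77.4%. In all 5 of them the ranges of the 3 groups overlapped.

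The groups were compared at every tested cytosine with a quasi-binomial model of the read counts, with Benjamini-Hochberg adjusted p under 0.05 as the threshold. The rule used the libraries without their groups. All unlesioned libraries are in the second run of library numbers, and most lesioned saline ones are in the first. In comparisons with unlesioned samples, lesion and run are therefore partly confounded. Of 442033 tested cytosines, 6240 were members. No member was called for any difference between the 3 groups (percent called over all tested cytosines 0.000226%), between L-DOPA and saline in lesioned samples (0%), or between lesioned and unlesioned saline samples (0%). Limma on log2 odds also called no member in these tests. Between L-DOPA and unlesioned samples 1 member was called, with 0.00136% called over all tested cytosines. The median share of variance between groups was 7.94% at members and 7.47% at tested cytosines.

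Without adjustment, at p under 0.05, members passed at 8.38% for any difference, where 4.28% of all tested cytosines did. Members were chosen for spread, and the model moderates their dispersion (median 6.26) toward that of all tested cytosines (median 2.48). Their shares can therefore exceed the background without a difference between groups. For L-DOPA against lesioned saline, 4.95% of the members passed, with 4.16% of all tested. Of these, 264 were lower in L-DOPA (4.23%, background 2.36%) and 45 higher (0.721%, background 1.8%). For lesioned against unlesioned saline 3.41% passed, with 3.32% of all tested, with 176 lower after the lesion (2.82%, background 1.97%) and 37 higher (0.593%, background 1.35%). For L-DOPA against unlesioned saline 15% passed, with 5.98% of all tested. There 871 members were lower in L-DOPA, 14% with a background of 4.02%, and 65 higher, 1.04% with a background of 1.96%. The rule takes members through their lowest library, which was L-DOPA 7 at 2854 members and L-DOPA 3 at 1134. The split into lower and higher is therefore partly set by the rule and cannot be read against the background. Members were not chosen anew in the fits below that leave out libraries. The 3 libraries with the lowest means include 2 L-DOPA libraries and 1 unlesioned one. Without all 3 of them the shares were 12.1% for L-DOPA against unlesioned saline and 16.4% for lesioned against unlesioned saline, with 5.76% and 5.54% of all tested cytosines. Single libraries moved these shares too. Without unlesioned 1 alone, the members passed at 18.2% for any difference, 9.33% between the saline groups and 27.7% between L-DOPA and unlesioned libraries, with 5.76%, 4.36% and 8.15% of all tested. Without L-DOPA 7 alone the last share was 8.91%, with 5.06% of all tested. Without L-DOPA 1 alone the share was 12.8% for any difference and 9.04% for L-DOPA against lesioned saline, with 5.08% and 5.09% of all tested. With limma on log2 odds and all libraries, fewer members passed. Members passed at 3.99% for any difference, 3.62% for L-DOPA against lesioned saline, 2.28% between the saline groups and 8.93% for L-DOPA against unlesioned saline. All tested cytosines passed there at 4.55%, 4.69%, 4.03% and 5.30%.

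The shares without adjustment were also counted by kind of cluster. Of the 131 cytosines in 3-level clusters, 17.6% passed when L-DOPA was set against lesioned saline. Between the saline groups, whose libraries include all 6 closest pairs, 0.763% passed, and between L-DOPA and unlesioned libraries 17.6%. Members of graded clusters passed at 4.54%, 3.51% and 15.2%, in the same order. For clusters with 2 levels the shares were 6.71%, 3.66% and 17.7%, and for those with 1 library alone on a level 5.39%, 3.03% and 11.8%. All tested cytosines passed at 4.16%, 3.32% and 5.98%, and the differences between the kinds were not tested. The share of values on the lowest level was 28.4% in unlesioned, 28.2% in lesioned saline and 28.6% in L-DOPA libraries, and on the highest level 31.6%, 32.7% and 31.7%. In 109 of the 115 clusters every group had libraries on at least 2 levels. The tests treat the 21 libraries as independent, although the 6 closest pairs shared the level in 107 to 115 of the 115 clusters. The model above leaves these pairs out of account, and there 3.41% of the members passed between the saline groups. Independence itself was not tested. With the 6 closest pairs as a block, an alternative chosen after seeing the data, lesioned against unlesioned saline gave 0 called cytosines in 12 libraries, and 9.34% of the members passed without adjustment, with 5.52% of all tested cytosines.

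Ranges of 60 points occurred within groups as well. Within the unlesioned libraries 1271 members spanned 60 points, within the lesioned saline ones 560 and within the L-DOPA ones 2043, although the groups hold 6, 8 and 7 libraries. Of the members, 34.5% rested on L-DOPA 7, 29.4% on unlesioned 4 and 11.8% on L-DOPA 3. At most 4.60% rested on any lesioned saline library. The counts are therefore partly set by the rule and do not compare the spread of the groups. Pairs of libraries of the same group differed by a mean of 33.2 points over the 3-level clusters. Pairs of different groups, leaving out the 6 closest, differed by 33.9 points.

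The called member is a forward-strand cytosine at chr12:39242451, 7082 bp from the placed promoter of LOC120095966 and 72586 bp from that of Gtf2h3, a subunit of a general transcription and DNA repair factor. Unlesioned libraries 1 to 6 were at 88.9%, 85.2%, 90.3%, 100%, 83.3% and 83.3%. Lesioned saline libraries 1 to 8 were at 75.5%, 59%, 58.1%, 54.4%, 57.9%, 64.2%, 38.7% and 76.9%. L-DOPA libraries 1 to 7 were at 70.8%, 62.2%, 26.1%, 36.8%, 52%, 27.8% and 41.6%. Each unlesioned library lay above every lesioned one, and the lesioned groups overlapped. The means were 88.5% ± 6.32 (SD, n = 6), 60.6% ± 12.2 (n = 8) and 45.3% ± 17.0 (n = 7). The difference between the L-DOPA and the unlesioned means was -43.2 points (SE 6.94, adjusted p = 0.0120, quasi-binomial model). The median depth was 72 reads and the lowest 22.

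The call rests on the test used. Limma on log2 odds gave an adjusted p of 0.118, and without unlesioned 3 the quasi-binomial adjusted p was 0.0927, the highest of the 21 values that leave out 1 library. For any difference between the 3 groups the same cytosine had an adjusted p of 0.0620, and for lesioned against unlesioned saline it had the smallest p among the members, with an adjusted p of 1.00 (quasi-binomial model).

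**Figure D5:**
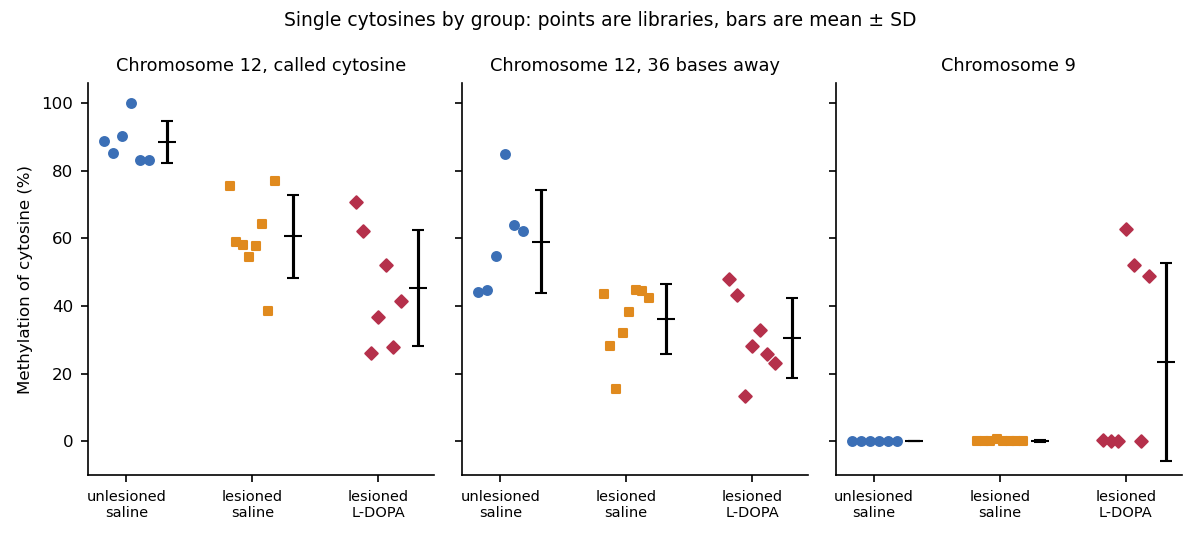
Methylation (percent) of 3 cytosines by group: the called cytosine on chromosome 12, the member 36 bases from it, and the cytosine on chromosome 9, with points for libraries and bars for mean ± SD (n = 6, 8 and 7). At the first the unlesioned libraries lie from 83.3% to 100% and all others at 76.9% or less, and on chromosome 9 only 3 L-DOPA libraries lie above 0.6%.

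Nearby cytosines on the same strand differed in the same direction at short distance. Reads were 50 bases long, so cytosines 19 and 36 bases away can be counted on the same reads as the called member. Their differences are therefore not independent of its difference, and the one 36 bases away was also chosen by its range. The member 36 bases upstream averaged 59.1% ± 15.2 in unlesioned, 36.2% ± 10.3 in lesioned saline and 30.7% ± 11.9 in L-DOPA libraries. A cytosine 19 bases upstream, outside the rule with a range of 52.6 points, averaged 55.1% ± 10.2, 35.4% ± 8.98 and 32.2% ± 16.3. Neither was called. From 144 to 165 bases upstream 4 cytosines averaged 92.2% to 98.6% in every group. The 5 other cytosines called between L-DOPA and unlesioned samples were no members. They lie at 3 positions from chr5:76371555 to chr5:76371589 and at 2 positions, chr7:2876108 and chr7:2876131, and differed by -23.6 to -14.5 points.

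For L-DOPA against lesioned saline the member with the smallest p was a reverse-strand cytosine at chr9:25648504, 398869 bp from Tram2. It was at 62.8% in L-DOPA 4, 52% in L-DOPA 5 and 48.8% in L-DOPA 7. The other 18 libraries, 4 of them L-DOPA, were at 0.6% or less. It did not pass (adjusted p = 1.00, quasi-binomial model). The cytosine 7 bases away on the same strand was at 82.8% to 95.7% in all 21 libraries and did not share the difference. It was the only other cytosine measured within 250 bp. L-DOPA 4, 5 and 7 are all in the second run of library numbers, as is L-DOPA 6, which was at 0%.

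Genes of 2 lists, known imprinted genes and genes of striatal and dopamine signalling, were looked up among the placed promoters. Of 26 imprinted genes 5 were placed, and Gnas and Igf2 had a cluster within 20 kb. Of 30 striatal genes 5 were placed, and Drd2, the D2 dopamine receptor, and Chrm4, a muscarinic receptor, had one within 20 kb. Of all 5667 genes with a placed promoter 784 (13.8%) had one. With 5 genes a list, these counts say little of either group.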

How the data were processed

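Bisulfite-converted DNA of 21 rat dorsal striatum samples was sequenced as single-end reads of 50 bases, per the labels' protocols. Per the submitters' processing notes, the build was rn5 and the tools were Bismark 0.13.0 and methylKit 0.9.2, with Trim Galore 0.3.7, FastQC 0.10.1 and SAMtools 0.1.19. The deposited files give, per the file headers, the coverage of each cytosine as a count of reads. They also give the percent of these reads with C and with T, as deposited by the authors, from which methylated read counts were rebuilt. Total coverage was 59551356 to 164225577 per library, counting a read at every CpG it covers, and median coverage was 37 to 70 reads.

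Members, gene lists and the placing of promoters were chosen with earlier results of these data known, and the genes named lie outside the naming rule, which asked for an rn5 annotation. The clusters named are the 8 with the most members and of the rest the 5 of each kind (2 levels, 3 levels, graded) with the most members, with ties broken by median coverage, plus the member with the smallest p in each comparison. Cluster values are methylated over total reads, summed over the members. Cytosines with 20 reads in all libraries and pooled methylation of 1% to 99% were tested with a quasi-binomial logistic model, with dispersion moderated as by limma's squeezeVar (median 2.48, at members 6.26) and p-values adjusted by Benjamini-Hochberg. It was tested on simulated data. Intervals are Wilson intervals at 95%. Limma on log2 odds, with 0.5 added to both counts, was the alternative test. Python 3.11.15, numpy 2.4.6, scipy 1.17.1, pandas 2.3.3, matplotlib 3.10.9, R 4.3.3 and limma 3.58.1 were used. Other chromosomes were not analysed here.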

Additional observations from a re-analysis of the deposited data

Results flagged for a closer look

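Within each group, a library was singled out when its distance to the nearest other library took up more of the group's range than Dixon's 95% critical value. This happened in 19 of 90 groups checked. Chance does it in about 1 of 20 groups, but these values come from cytosines chosen for libraries that lie far apart, so the count cannot be read against that rate. Unlesioned 4 was the highest library at 1710 members, against 36 to 421 for the other unlesioned libraries, and 29.4% of the members rested on it, against 1.79% to 5.26%. Lesioned saline 2 was lowest at 500 members, against 84 to 172 in its group. L-DOPA 7 was lowest at 2854, against 95 to 1134, and 34.5% of the members rested on it, against 1.76% to 11.8%.

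Of the 14 values from named clusters and cytosines, 13 came from unlesioned 1, lesioned saline 2, L-DOPA 3 or L-DOPA 7. Unlesioned 1 was at 34% in the 11-member cluster on chromosome 3 (others of its group 72.8% to 81.3%), 20.5% on chromosome 11 (48.5% to 61.3%), 19.4% on chromosome 2 (74.7% to 82.8%), 27.6% on chromosome 7 (82.5% to 96.6%) and 40.1% in the last graded cluster on chromosome 5 (64.4% to 75.5%). On chromosome 4 it was high, at 33.7% (1.53% to 9.43%). Lesioned saline 2 was at 46.7% on chromosome 3 (62.9% to 76.9%), 45.9% on chromosome 6 (67.4% to 82.9%), 42.9% on chromosome 7 (79% to 97%) and 29.6% on chromosome 5 (54.9% to 70.5%). L-DOPA 3 was at 26% on chromosome 2 (53.5% to 69.5%). L-DOPA 7 was at 12% on chromosome 8 (36% to 53.7%) and at 37.1% on chromosome 10 (19.7% to 26.4%). The remaining value was the 0.6% of lesioned saline 4 at the chromosome 9 cytosine, where the others of its group were at 0%.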

How the results depend on the processing

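The number of members followed the rule closely. With 10 reads as the minimum there were 24610 cytosines in 17719 clusters, and with 50 reads 458 in 385. A range of 50 points gave 19009 in 13289, and of 70 points 1855 in 1617. The range between second highest and second lowest library gave 613 in 556. Without L-DOPA 7, L-DOPA 3 and unlesioned 1 there were 2742 in 2364, and without unlesioned 4 as well, an alternative chosen after seeing the data like the within-run fits below, 1400 in 1245. With each library left out in turn there were 4320 to 7239 cytosines in 3523 to 5729 clusters, lowest without L-DOPA 7. Clusters with separate levels numbered 1210 with gaps of 10 points, 3418 without a limit on the span of a level (graded 1545), 120 with 50 reads (graded 265) and 378 without the 4 libraries (graded 867). Without the 3 libraries, also chosen after seeing the data for the levels, 1729 were graded.

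Calls at an adjusted p under 0.05 were few in every setting. They are given for any difference, L-DOPA against lesioned saline, lesioned against unlesioned saline, and L-DOPA against unlesioned saline, in this order. Without the limit on pooled methylation there were 0, 0, 0 and 2 calls, none a member. With 50 reads there were 0, 0, 0 and 1, none a member. Without the 3 libraries there were 13, 6, 2 and 7 (members 1, 0, 0 and 1), and without the 4 there were 16, 9, 0 and 4 (members 2, 1, 0 and 0). With the library runs as a term there were 1, 0, 0 and 4 (members 1, 0, 0 and 2). Within the first run L-DOPA against lesioned saline gave 1 call, a member, and within the second run L-DOPA against unlesioned saline gave 1, a member. Limma gave 2, 0, 0 and 4, with 0 members, and an adjusted p of 0.118 for the chromosome 12 member. Leaving out 1 library gave 0 to 4, 0 to 0, 0 to 0 and 2 to 11 calls (members 0 to 1, 0 to 0, 0 to 0 and 0 to 1). The cause of these changes was not tested.

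With the replicate number as a block there were 33, 16, 5 and 30 calls (members 5, 3, 1 and 3). The numbers do not pair the samples: over 19 same-numbered pairs the deviations correlated at -0.371 to 0.220, and 2 libraries were closest to their own number. The lowest coverage of a member over the libraries had a median of 26 reads, which limits the precision of single values.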
